A study of Mus musculus with 12 samples.

Results

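The cyclins and kinases that carry cells through G1 were followed in mouse lines labelled as liver cancer (HCC) with and without a BRAF inhibitor. The members are 9 genes, of 47729 listed, chosen by symbol for their role: the D cyclins Ccnd1, Ccnd2 and Ccnd3, their kinases Cdk4 and Cdk6, the E cyclins Ccne1 and Ccne2 with their kinase Cdk2, and the atypical cyclin Ccng2. All 9 passed the filter on low counts in each fit. RNA was sequenced from 6 lines, each once per treatment, giving 12 libraries. Metastasis lines M1, M2 and M3, labelled as lymph node metastases, received 2 µM PLX4720 or its solvent DMSO for 48 h. Primary lines T1, T2 and T3, from liver tumours, received the same. By their labels all lines carry the BRAFV600E oncogene and a p53 knockout, and none is labelled with intact p53 or unmutated BRAF. Trp53, which encodes p53, stood at 2.79 to 4.19 CPM (library-scaled fragment counts, using TMM factors) in metastasis lines with PLX4720 and 3.27 to 4.86 CPM with DMSO, and at 4.09 to 8.55 CPM in primary lines with PLX4720 and 4.66 to 6.88 CPM with DMSO (96 to 327 fragments). Counts per gene include exons outside a deleted part and no intact line was compared, so these levels do not check the label. The design text describes a mouse model in which hepatocytes express the oncogene and lack either Trp53 or Cdkn2a. The labels do not say which animals gave the lines, and T3, M2 and M3 carry the same number in the names of their tables. The p-values below therefore measure the spread between these lines.

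In G1, growth signals through BRAF, MEK and ERK raise D cyclins, and Ccnd1 is the best known of the ERK-dependent ones. D cyclins activate CDK4 and CDK6, which phosphorylate RB and release E2F transcription factors, and E2F in turn drives the E cyclins, which activate CDK2 and start S phase. Cyclin G2 runs the other way: its transcript is raised by FOXO factors in resting cells and it is linked to arrest.

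Library totals were 31992512 to 39288748 counted fragments. Mitochondrial genes took 3.67% of the T3 library with PLX4720 and 0.189% to 0.712% of the other 11. Of the 19 genes listed as ERK output, 12 were lower and 3 higher with PLX4720 over the 6 lines (edgeR). Over all 16555 genes tested, 12.7% were lower and 14.5% higher. Hepatocyte markers went against the HCC label in the metastasis lines: 8 genes summed to 1.03 to 4.59 CPM with PLX4720 and 0.208 to 1.95 CPM with DMSO, with Alb, Ttr, Serpina1a and Tat at 0 in both groups. Primary lines held 936 to 1854 CPM with PLX4720 and 779 to 1466 CPM with DMSO, carried by Apob, an apolipoprotein, and Hnf4a, a hepatocyte transcription factor. The other 6 were low there too: over all libraries Alb reached 15.8, Serpina1a 8.02, Ttr 4.99, Apoa1 2.99, Tat 0.267 and Cps1 0.0291 CPM at most. Epithelial markers (5 genes) summed to at most 17.3 CPM in any metastasis library and at least 5239 CPM in any primary library. Mesenchymal markers (5 genes) reached 9952 to 17482 CPM in metastasis lines with PLX4720 and 4846 to 8204 CPM with DMSO, against 2221 to 4775 CPM and 2921 to 4997 CPM in primary lines. Leukocyte markers (7 genes) summed to at most 9.12 CPM and endothelial ones (4 genes) to at most 5.32 CPM, with Adgre1, which marks macrophages, at 0 in every library. Whether the metastasis lines are tumour cells of hepatocyte origin was not tested, so the comparisons between sites below are between lines as labelled. The part of these marker differences in the results was not tested.

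Promoters are shown for Cdk4 and Cdk2, since motifs for MYC-type and E2F factors stood in them. They are the 250 bases before the RefSeq start of each gene (GRCm38.p6), read 5′ to 3′ on the gene's strand. Capitals mark the E-box CACGTG in Cdk4 (chr10:127063285-127063534, plus strand) and the E2F core GCGGGAA in Cdk2 (chr10:128705052-128705301, minus strand). Both strands were searched, the E-box reads the same on either, and these motifs do not overlap each other.
Cdk4: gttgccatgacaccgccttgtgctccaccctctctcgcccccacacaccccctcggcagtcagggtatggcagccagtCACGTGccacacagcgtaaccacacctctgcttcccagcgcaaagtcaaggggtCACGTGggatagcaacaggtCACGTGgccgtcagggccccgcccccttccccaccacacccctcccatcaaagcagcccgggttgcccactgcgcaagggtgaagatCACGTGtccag
Cdk2: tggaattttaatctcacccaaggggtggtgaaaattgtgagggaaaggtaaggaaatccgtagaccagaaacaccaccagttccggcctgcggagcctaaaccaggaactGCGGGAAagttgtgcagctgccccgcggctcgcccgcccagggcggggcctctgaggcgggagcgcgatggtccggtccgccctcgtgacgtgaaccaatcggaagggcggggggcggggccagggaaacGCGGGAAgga
Cdk4 held 4 E-boxes, at -172, -118, -98 and -11 from the start, and Cdk2 held 2 E2F cores, at -140 and -10. Of all 32851 promoter windows of the same length, 6.02% held an E-box and 3.82% an E2F core. The FOXO core TGTTTAC stood in 3.17% of windows, and among the members in 1 window, that of the upstream Ccnd3 promoter at -243. Of the 9 members, 6 had a promoter in the RefSeq table, and Cdk6 had 1 E-box at -220, while the windows of Ccne1 and Ccng2 matched none of these letters. Ccnd1, Ccnd2 and Ccne2 were not searched. These matches are descriptions of the sequence, not of binding.

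Levels between genes are compared as CPM per kb of exon (exon length as deposited). On that scale Ccnd1 and Cdk4 were the most abundant members in every library. The highest level of any other member was that of Ccnd2 in T1. It stood at 67.4 CPM per kb with PLX4720 and 57.0 with DMSO, against 115 and 136 for Cdk4. In plain CPM Ccnd2 exceeded Cdk4 in T1, at 634 against 375 with PLX4720 and 536 against 442 with DMSO. In metastasis lines with PLX4720, Cdk4 led at 152 ± 17.9 CPM per kb (SD, n = 3 lines here and below), followed by Ccnd1 at 115 ± 30.4. Their ranges missed each other narrowly, by 140 CPM per kb for Cdk4 against 139 for Ccnd1 in M1. With DMSO the order in metastasis lines was Ccnd1 at 213 ± 18.7, then Cdk4 at 176 ± 7.29 CPM per kb, again without overlap. The order with PLX4720 depended on the length used. With exon bases shared with another gene left out of the length, a choice made after seeing the data, Cdk4 and Ccnd1 stood at 172 and 181 CPM per kb in M1, 175 and 106 in M2 and 212 and 165 in M3, so that the ranges overlapped and M1 turned round. With DMSO Ccnd1 stayed first on that length, at 278 ± 24.4 against 217 ± 8.96 for Cdk4. In primary lines Ccnd1 stood first in both treatments, at 200 ± 66.6 CPM per kb with PLX4720, overlapping Cdk4 at 114 ± 17.2, and at 227 ± 42.6 with DMSO, above Cdk4 at 127 ± 9.81.

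Below these came different genes at the 2 sites. In metastasis lines with DMSO, Ccne2 (35.2 ± 8.80 CPM per kb), Cdk2 (24.1 ± 1.31) and Ccne1 (18.7 ± 4.31) followed, Cdk2 and Ccne1 overlapping, and Ccnd3, Ccng2, Ccnd2 and Cdk6 closed the order at 9.46, 5.63, 4.16 and 3.80, where Ccng2, Ccnd2 and Cdk6 overlapped in turn. With PLX4720 they followed in the same order, at 27.5, 20.9, 14.0, 9.71, 7.98, 5.78 and 3.90 CPM per kb, and neighbours overlapped except Cdk2 and Ccne1. In primary lines with DMSO, Ccnd2 came next at 29.6 ± 24.3 CPM per kb, then Cdk2 at 22.7 ± 3.94, Ccne2 at 21.3 ± 0.329, Ccng2 at 13.6 ± 5.96, Cdk6 at 10.5 ± 0.226, Ccne1 at 9.40 ± 1.82 and Ccnd3 at 5.77 ± 0.347. Ranges overlapped between these neighbours except Ccne2 with Ccng2 and Ccne1 with Ccnd3. With PLX4720 Ccnd2 stood at 32.9 ± 29.9, Cdk2 at 18.4 ± 2.30 and Ccne2 at 16.0 ± 1.33, overlapping in turn. Cdk6 (14.3 ± 3.86 CPM per kb) stood above Ccng2 (12.9 ± 5.92) with overlap, Ccne1 was 5.92 ± 0.214 and Ccnd3 was last at 5.23 ± 0.703. Exon length spans many isoforms, so a gene with long alternative exons is placed lower on this scale. Without shared bases Ccne2 stood above Cdk2 in primary lines in both treatments, with overlap, at 19.4 and 18.4 CPM per kb with PLX4720 and 25.8 and 22.7 with DMSO.

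**Figure D1:**
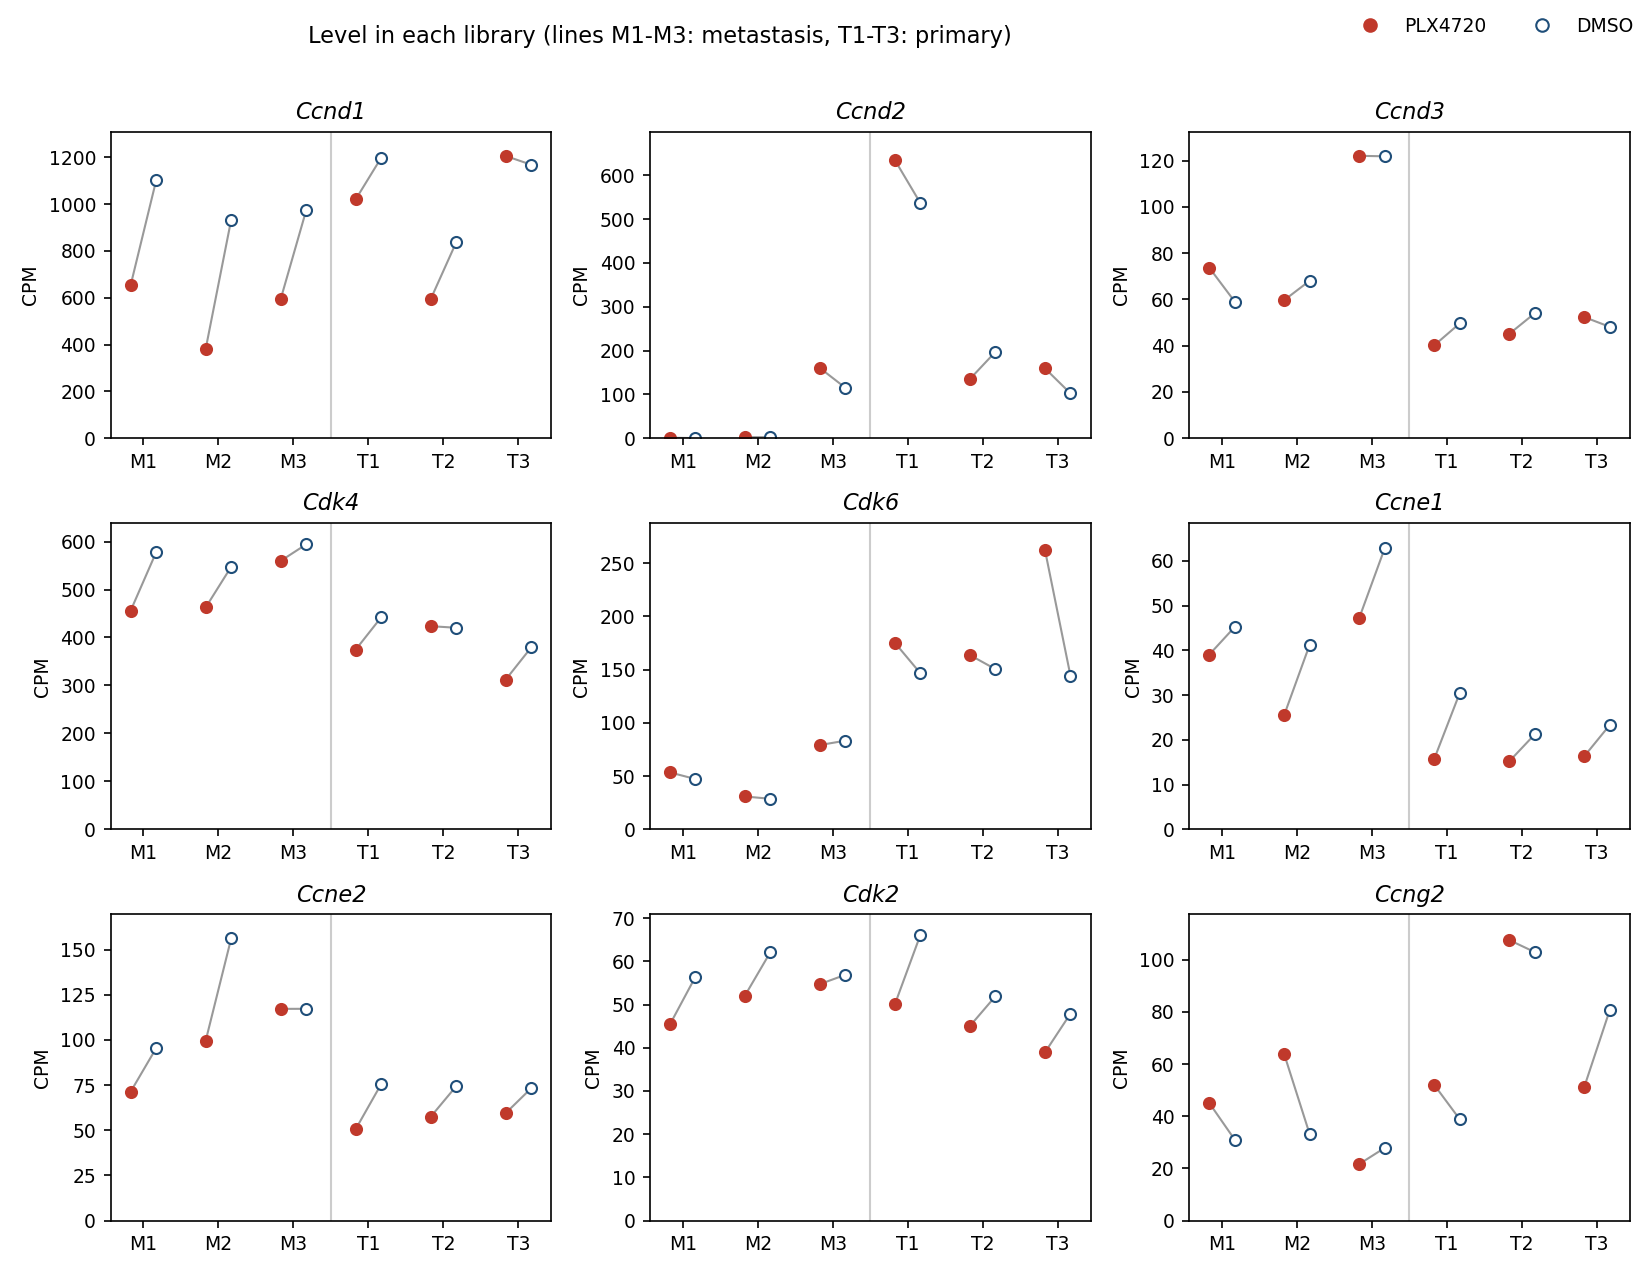
Level of each member in each library (CPM, linear axes from 0), PLX4720 filled and DMSO open, joined within a line, with M1 to M3 (metastasis) left of T1 to T3 (primary). Ccnd1 was lower with PLX4720 in all 3 metastasis lines, Ccnd2 was near 0 in M1 and M2, and Cdk6 was lower in the metastasis lines.

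Ccnd1 (ENSMUSG00000070348, chromosome 7, 144929931 to 144939925, minus strand, GRCm38 as are all positions below), the main D cyclin transcript here, fell with PLX4720 over the 6 lines, 1.49-fold. M1, M2 and M3 had 654, 382 and 594 CPM with PLX4720, against 1102, 933 and 974 CPM with DMSO. T1, T2 and T3 had 1020.3, 594 and 1205.5 CPM with PLX4720, against 1198, 837 and 1168 CPM with DMSO. The metastasis groups did not overlap, whereas the primary groups did, and T3 was the only line not lower. Such ranges of PLX4720 against DMSO, here and for the members below, set aside the pairing by line. Their overlap over all genes was not counted. The log2 change over the 6 lines was -0.57 ± 0.10 (SE; edgeR adjusted p = 0.00425), with 5 of 6 lines lower. In this comparison 4 of the 9 members were called lower and 0 higher, against 27.2% of the 16555 genes tested (12.7% lower and 14.5% higher). DESeq2 called 5 members, all lower, and 27.1% of genes.

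By site, Ccnd1 fell 1.89-fold in metastasis lines, a log2 change of -0.92 ± 0.14 (edgeR adjusted p = 0.00255), against -0.23 ± 0.14 in primary lines (adjusted p = 0.345), where it did not pass. The change over all lines kept its call in each of the 6 fits without 1 line (-0.64 to -0.48, edgeR adjusted p at most 0.0202), and so did the change in metastasis lines (-1.05 to -0.75, at most 0.0149). The difference between the sites was -0.69 ± 0.20 (edgeR adjusted p = 0.119, unadjusted p = 0.00710). That comparison called 2.94% of genes and 0 of 9 members. Unadjusted, 1 member was under 0.05, as were 2438 of 16555 genes. DESeq2 put that difference at -0.71 and called it (adjusted p = 0.0249) with 5.56% of genes, as did edgeR with no filter (-0.69, adjusted p = 0.0121). LTO1, on the opposite strand, shares 1100 of the 4709 exon bases of Ccnd1 (23.4%), and shared fragments are counted for neither gene.

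**Figure D2:**
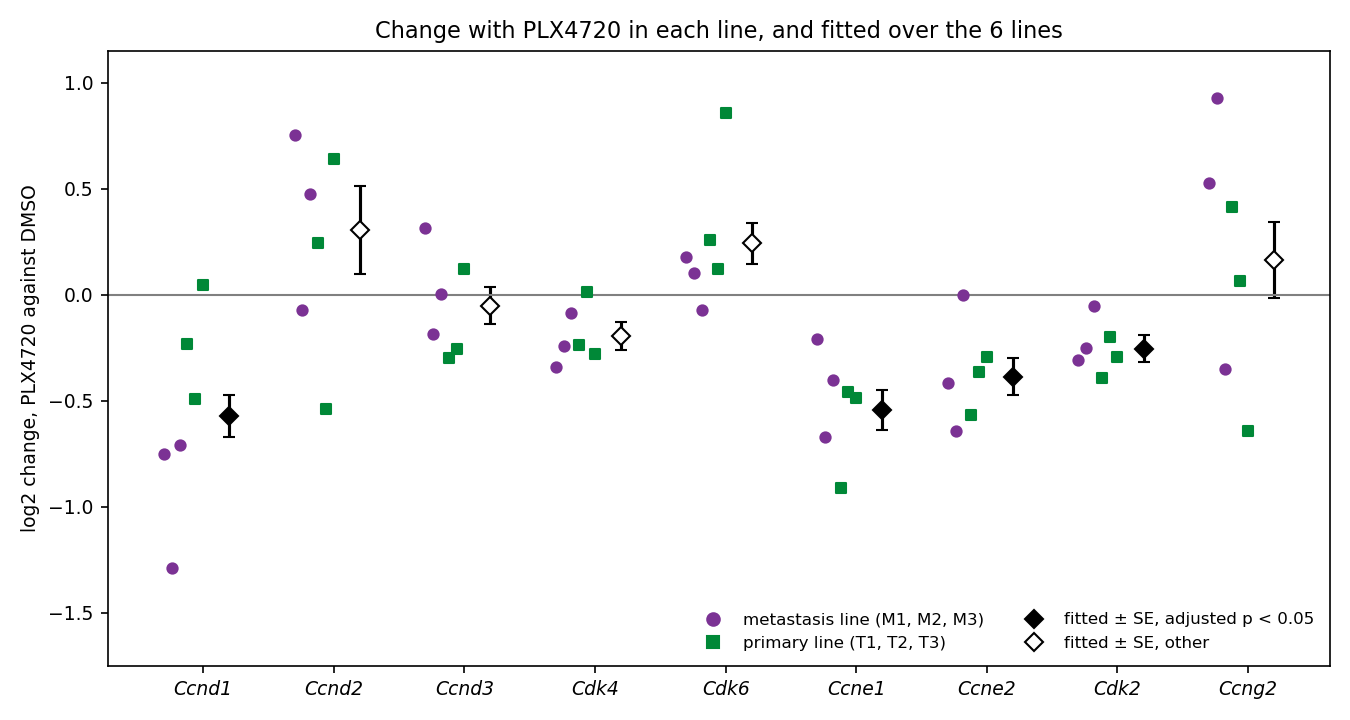
Change with PLX4720 against DMSO per line (log2(CPM + 1) difference, circles metastasis, squares primary) and fitted over the 6 lines (diamonds, ± SE, log2 axis), filled for the 4 members past the threshold. Ccnd1, Ccne1, Ccne2 and Cdk2 lie below 0, and the T3 square of Cdk6 stands apart at 0.86.

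Ccnd2 (ENSMUSG00000000184, chromosome 6, 127125162 to 127152193, minus strand), a D cyclin whose use depends on cell type, was nearly silent in 2 of 3 metastasis lines. Among metastasis lines, M1, M2 and M3 had 0.986, 2.21 and 160.0 CPM with PLX4720, against 0.179, 2.38 and 115 CPM with DMSO. Among primary lines, T1, T2 and T3 had 634, 135 and 159 CPM with PLX4720, against 536, 197 and 102 CPM with DMSO. M3 therefore stood in the range of the primary lines in both treatments, and the site groups overlapped. In M1 the counts were 36 fragments with PLX4720 and 6 with DMSO, a ratio of 5.51 (exact 95% interval 2.30 to 16.0, counting error only), and in M2 they were 73 and 80, a ratio of 0.930 (0.668 to 1.29). The change with PLX4720 did not pass (0.31 ± 0.21, edgeR adjusted p = 0.311), being higher in 4 of 6 lines.

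Ccnd3 (ENSMUSG00000034165, chromosome 17, 47505051 to 47599691, plus strand), the D cyclin prominent in blood cells, did not pass with PLX4720 (log2 change -0.05 ± 0.09, edgeR adjusted p = 0.696). Its level in M1, M2 and M3 was 73.8, 59.7 and 122 CPM with PLX4720, against 59.1, 68.1 and 122 CPM with DMSO. Its level in T1, T2 and T3 was 40.1, 45.1 and 52.4 CPM with PLX4720, against 49.6, 54.0 and 48.1 CPM with DMSO. Each metastasis line lay above each primary line in the same treatment. Of its exon bases 361 (4.11%) overlap Bysl on the opposite strand.

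The D cyclin mix was computed as each gene's share of the summed CPM per kb of the 3 D cyclins in a library. Ccnd1 held most of it in every library, and its share was lower with PLX4720 in 6 of 6 lines: 94.2%, 92.0%, 80.3%, 75.1%, 86.6% and 91.8% in M1, M2, M3, T1, T2 and T3 with PLX4720, against 97.2%, 96.1%, 88.8%, 80.2%, 86.8% and 93.8% with DMSO. The mean share was 86.7 ± 7.58% with PLX4720 and 90.5 ± 6.47% with DMSO (SD, n = 6 lines), a difference of -3.82 points. The exact two-sided sign-flip permutation test gave p = 0.03125, the smallest that 6 pairs allow, and 0.257 after Benjamini-Hochberg adjustment over the 9 tests of the mix. Even with the smallest p that each of these tests allows, no adjusted value could fall under 0.05. The change was smallest in T2 and largest in M3.

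The other shares moved less evenly. Ccnd2 took 0.0710%, 0.267%, 10.8%, 23.4%, 9.86% and 6.07% in M1, M2, M3, T1, T2 and T3 with PLX4720, against 0.00791%, 0.123%, 5.24%, 18.0%, 10.2% and 4.10% with DMSO, a mean difference of 2.13 points (exact p = 0.15625). Ccnd3 took 5.70%, 7.72%, 8.86%, 1.58%, 3.53% and 2.14% with PLX4720, against 2.80%, 3.76%, 5.97%, 1.78%, 3.01% and 2.08% with DMSO, a mean difference of 1.69 points (exact p = 0.09375). Both shares were higher with PLX4720 in 5 of 6 lines, T2 being the exception for Ccnd2 and T1 for Ccnd3. The shares of a library are parts of the same sum, so a lower Ccnd1 share means that the others rise together, and their tests are not independent. In level, Ccnd2 was higher in 4 of 6 lines and Ccnd3 in 3 of 6. In the metastasis lines the summed D cyclin level was 147, 88.1 and 157 CPM per kb with PLX4720, against 241, 206 and 233 CPM per kb with DMSO. In T1, T2 and T3 it was 289, 146 and 279 CPM per kb with PLX4720, against 317, 205 and 264 CPM per kb with DMSO.

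By site, Ccnd3 held 7.43 ± 1.60% of the mix in metastasis lines and 2.42 ± 1.00% in primary lines with PLX4720, with no overlap (exact two-sided permutation p = 0.1, the smallest that 3 lines against 3 allow). With DMSO it held 4.18 ± 1.62% in metastasis lines and 2.29 ± 0.638% in primary lines (exact p = 0.2). Ccnd2 held 3.72 ± 6.15% and 13.1 ± 9.09% in metastasis and primary lines with PLX4720 (exact p = 0.3), and 1.79 ± 2.99% and 10.8 ± 6.95% with DMSO (exact p = 0.2). Ccnd1 held 88.9 ± 7.47% and 84.5 ± 8.57% in metastasis and primary lines with PLX4720 (exact p = 0.5), and 94.0 ± 4.57% and 86.9 ± 6.79% with DMSO (exact p = 0.2). Since 3 lines against 3 cannot give a p under 0.1, no share could pass the threshold of 0.05 between sites, whatever its size. These tests therefore cannot decide whether the mix differs by site. Without T1 the Ccnd1 difference with PLX4720 had the other sign (-0.345 points).

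**Figure D3:**
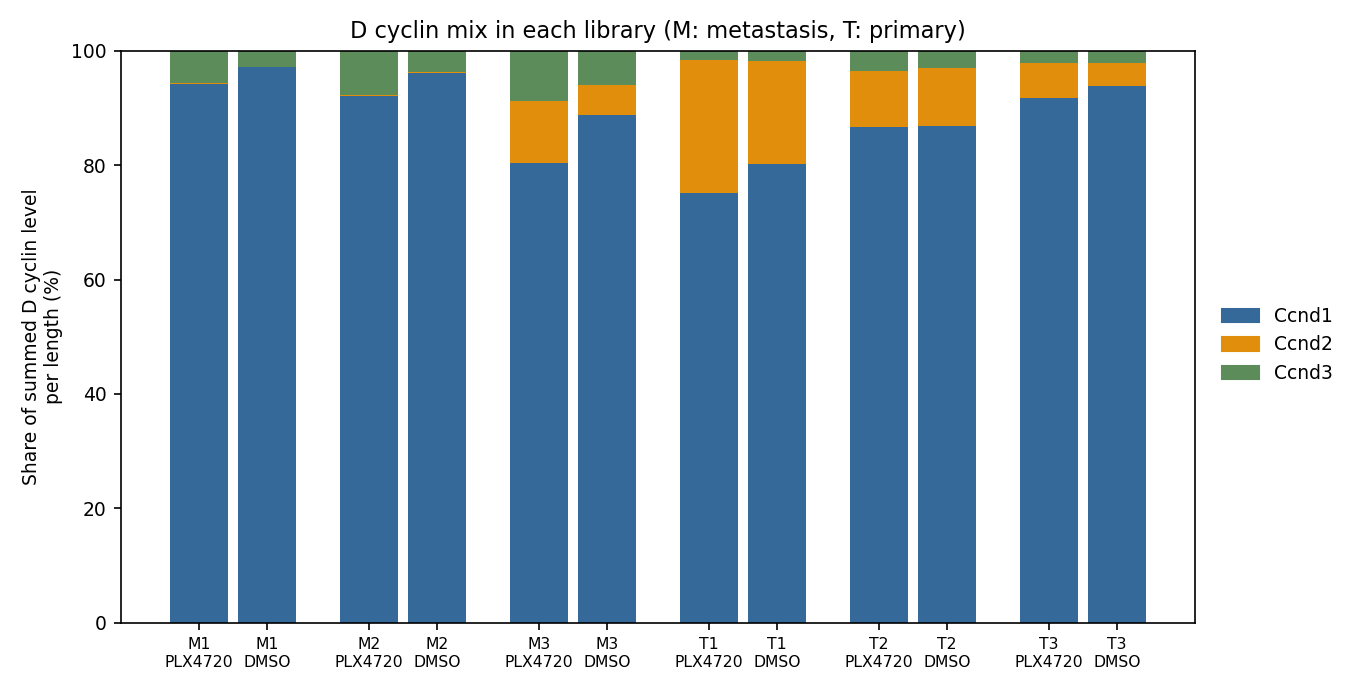
Share of Ccnd1, Ccnd2 and Ccnd3 in the summed D cyclin level per length (%, stacked to 100) in each library, PLX4720 left of DMSO within a line. Ccnd1 holds at least 75.1% in every library, Ccnd2 is all but absent from M1 and M2, and T1 has the largest Ccnd2 share.

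Cdk4 (ENSMUSG00000006728, chromosome 10, 127063534 to 127067920, plus strand), the more abundant D cyclin kinase transcript here, missed the threshold with PLX4720. Metastasis lines had, for M1, M2 and M3 in turn, 456, 463 and 559.7 CPM with PLX4720, against 578, 547 and 594 CPM with DMSO. Primary lines had, for T1, T2 and T3 in turn, 375, 424 and 312 CPM with PLX4720, against 442, 420.3 and 379 CPM with DMSO. It was lower in 5 of 6 lines, T2 excepted. The fitted log2 change of -0.20 ± 0.07 (edgeR adjusted p = 0.0572) passed in DESeq2 (adjusted p = 0.0392) and without M3 (edgeR adjusted p = 0.0417). Tspan31 on the opposite strand shares 604 of its 3249 exon bases (18.6%).

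Cdk6 (ENSMUSG00000040274, chromosome 5, 3341485 to 3531008, plus strand), the alternative D cyclin kinase, was lower in metastasis than in primary lines in each treatment. M1, M2 and M3 had 53.5, 30.9 and 79.2 CPM with PLX4720, against 47.3, 28.7 and 83.3 CPM with DMSO. T1, T2 and T3 had 175, 164 and 262 CPM with PLX4720, against 147, 151 and 144 CPM with DMSO. The groups did not overlap. With PLX4720 it was higher in 5 of 6 lines but did not pass (0.24 ± 0.10, edgeR adjusted p = 0.0964), nor in primary lines (0.41 ± 0.14, adjusted p = 0.0947), where DESeq2 called it (adjusted p = 0.0492) along with 11.4% of genes. Without T3, whose PLX4720 library held the most mitochondrial fragments, the change in primary lines was 0.21 (edgeR adjusted p = 0.313). Per length, Cdk4 exceeded Cdk6 by 36.7, 64.4 and 30.4 times in M1, M2 and M3 with PLX4720 and by 52.6, 82.0 and 30.7 times with DMSO. In T1, T2 and T3 the ratio was 9.21, 11.1 and 5.12 with PLX4720 and 13.0, 12.0 and 11.3 with DMSO.

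Ccne1 (ENSMUSG00000002068, chromosome 7, 38097984 to 38107534, minus strand), an E cyclin and E2F target, fell with PLX4720 in every line, 1.46-fold. M1, M2 and M3 had 39.0, 25.6 and 47.2 CPM with PLX4720, against 45.2, 41.3 and 62.8 CPM with DMSO. T1, T2 and T3 had 15.7, 15.2 and 16.3 CPM with PLX4720, against 30.5, 21.2 and 23.3 CPM with DMSO. The primary groups did not overlap, and the metastasis groups did. The log2 change was -0.54 ± 0.09 over the 6 lines (edgeR adjusted p = 0.00399) and kept its call without any 1 line (adjusted p at most 0.0162). In primary lines it was -0.65 ± 0.13 (edgeR adjusted p = 0.0248), the only member called there against 8.23% of genes (3.77% lower), and in metastasis lines -0.44 ± 0.13 (adjusted p = 0.0446), where Ccnd1 and Ccne1 were called lower against 20.4% of genes (8.36% lower). These calls by site were not stable: in primary lines the adjusted p was 0.210, 0.0869 and 0.0725 without T1, T2 and T3, and in metastasis lines 0.208, 0.0848 and 0.0528 without M2, M3 and T2, and 0.0563 in a fit of the metastasis libraries alone.

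Ccne2 (ENSMUSG00000028212, chromosome 4, 11191351 to 11204779, plus strand), the other E cyclin, also fell. Metastasis lines M1, M2 and M3 stood at 71.4, 99.6 and 117 CPM with PLX4720, against 95.5, 156 and 117 CPM with DMSO. Primary lines T1, T2 and T3 stood at 50.7, 57.5 and 59.5 CPM with PLX4720, against 75.6, 74.4 and 73.3 CPM with DMSO. The primary groups did not overlap, the metastasis groups did, and M3 was level. The log2 change was -0.39 ± 0.09 (edgeR adjusted p = 0.0122), lost without T1 (adjusted p = 0.0584). Ints8 on the opposite strand shares 609 of its 3495 exon bases (17.4%).

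Cdk2 (ENSMUSG00000025358, chromosome 10, 128697939 to 128705051, minus strand), the kinase of the E cyclins, changed least among the called members. Metastasis lines M1, M2 and M3 stood at 45.4, 52.1 and 54.7 CPM with PLX4720, against 56.4, 62.2 and 56.9 CPM with DMSO. Primary lines T1, T2 and T3 stood at 50.1, 45.1 and 38.9 CPM with PLX4720, against 66.2, 51.9 and 47.9 CPM with DMSO. The metastasis groups did not overlap and the primary groups did, although each primary line was lower with PLX4720. The log2 change was -0.25 ± 0.06 (edgeR adjusted p = 0.0183), lost without T1, T3 or M2 (adjusted p = 0.0849, 0.0587 and 0.0670). Ccne1, Ccne2 and Cdk2 were lower in 6 of 6 lines, as were 12.8% of all genes tested, but for Ccne2 in M3 the margin was only 4030 fragments with PLX4720 against 4037 with DMSO.

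Ccng2 (ENSMUSG00000029385, chromosome 5, 93267257 to 93276231, plus strand), the atypical cyclin of resting cells, had no common direction. Its level in M1, M2 and M3 was 45.2, 63.8 and 21.7 CPM with PLX4720, against 31.1, 33.1 and 27.9 CPM with DMSO. Its level in T1, T2 and T3 was 52.1, 107.6 and 51.2 CPM with PLX4720, against 38.9, 103 and 80.7 CPM with DMSO. It was higher in M1, M2, T1 and T2 and lower in M3 and T3, which gave 0.16 ± 0.18 as the fitted log2 change (edgeR adjusted p = 0.539).

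Under DMSO, 0 of 9 members differed between metastasis and primary lines by edgeR, where 12.1% of 14992 genes were called. Without adjustment, 6 members had an edgeR p under 0.05, as had 3884 of the 14992 genes. DESeq2 called 5 members, where it called 19.8% of genes. Cdk6 had a log2 difference of -1.46 ± 0.37 (edgeR adjusted p = 0.0528), Ccne1 of 1.00 ± 0.25 (adjusted p = 0.0512), Ccng2 of -1.26 ± 0.36 (adjusted p = 0.0756), Ccne2 of 0.74 ± 0.21 (adjusted p = 0.0773) and Cdk4 of 0.48 ± 0.15 (adjusted p = 0.0929). These are the 5 that DESeq2 called, at adjusted p = 0.00510, 0.00555, 0.0160, 0.0369 and 0.0194. In values per line, Ccnd3, Ccne1, Ccne2 and Cdk4 were higher in every metastasis line than in every primary line, and Ccng2 and Cdk6 lower, 6 of 9 members, while 33.2% of all genes showed no overlap (15.2% above and 17.9% below). Ccnd1 and Cdk2 did not pass (-0.08 ± 0.20 and 0.09 ± 0.19, edgeR adjusted p = 0.861 and 0.813), and Ccnd2 did not pass on its wide spread (-2.83 ± 1.87, adjusted p = 0.409). Without M3 the Ccnd2 difference was -7.74 and passed (edgeR adjusted p = 0.0429), as did Cdk6 (adjusted p = 0.0229). Ccng2 passed without T1 (adjusted p = 0.0190) and Ccne2 without M1 (adjusted p = 0.0481).

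Under PLX4720, Cdk6 was lower in metastasis lines by a log2 difference of -1.85 ± 0.39, 3.61-fold (edgeR adjusted p = 0.0253), and Ccne1 higher by 1.27 ± 0.28, 2.41-fold (adjusted p = 0.0323), so 2 of 9 members were called, against 13.5% of 15276 genes (5.62% higher and 7.88% lower). Neither call was stable. Cdk6 lost it without T1, T3, M1 or M2 (edgeR adjusted p = 0.0515, 0.0640, 0.0736 and 0.0599), and Ccne1 without T1, T2, T3, M1 or M3 (adjusted p = 0.103, 0.110, 0.0748, 0.0809 and 0.0856) or with no filter on low counts (adjusted p = 0.0535). Ccnd3, Ccne1, Ccne2 and Cdk4 were again above and Cdk6 below in every line, 5 of 9 members, against 34.7% of all genes with no overlap (16.6% above and 18.2% below), and Ccng2 overlapped. Ccnd1 stood at -0.77 ± 0.33 (edgeR adjusted p = 0.198) and Ccnd2 at -2.47 ± 1.79 (adjusted p = 0.438), a difference that was -7.57 without M3 (adjusted p = 0.0252). Both comparisons use the same 6 lines, so they are not independent. The hepatocyte, epithelial and mesenchymal markers above also differ between the sites.

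**Figure D4:**
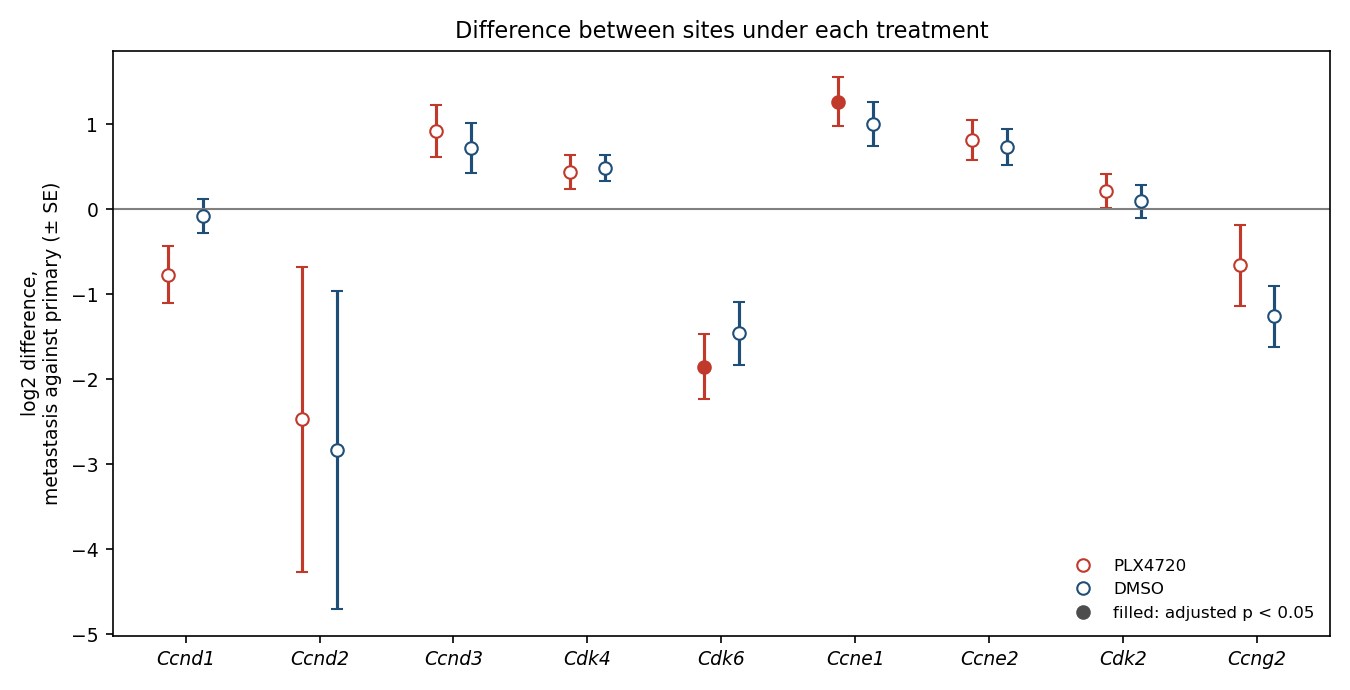
Log2 difference between metastasis and primary lines for each member (± SE), PLX4720 left of DMSO, filled where the edgeR adjusted p was under 0.05. Cdk6 and Ccne1 are filled with PLX4720 only, at -1.85 and 1.27, and the bars of Ccnd2 are the widest.

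Around the members, the inputs and outputs of the G1 machinery moved as follows over the 6 lines (edgeR). Over all genes the median log2 change was 0.03, with 12.7% lower and 14.5% higher, the shares against which the counts of each list here and in the next paragraphs stand. Of 20 E2F targets of G1 and S phase, 11 were lower and 0 higher (median -0.24), among them Tk1, thymidine kinase (-0.47 ± 0.07, adjusted p = 0.00307) and Cdc45, a replication helicase factor (-0.42 ± 0.06, adjusted p = 0.00257). The count of E2F targets called lower was 5 without T1 and 14 without M3. Over all genes, 2103 were called lower on the 6 lines. Without T1, T2, T3, M2 and M3 the number was 1070, 1423, 1389, 1305 and 2048, of 17038 to 17295 genes tested. List counts without a line, here and in the next paragraphs, stand against these. Of 14 RB and E2F genes, 4 were lower and 0 higher (median -0.12), with E2f2, an activating E2F, at -0.75 ± 0.12 (adjusted p = 0.00271), E2f8, a repressing one, at -0.49 ± 0.13 (adjusted p = 0.0235) and E2f5 at -0.26 ± 0.06 (adjusted p = 0.0194). E2f8 and E2f5 each lost their call in 4 of the 6 fits without a line, and the count of lower genes was 1 without T1, T2 or M2. In T3, E2f2 and E2f8 were higher with PLX4720 (25.4 and 39.2 CPM) than with DMSO (24.9 and 30.2 CPM). Both passed in metastasis lines (-1.11 and -0.83, edgeR adjusted p = 0.00259 and 0.0141). They did not in primary lines (-0.39 and -0.15, adjusted p = 0.161 and 0.651), nor in the difference of the effects (adjusted p = 0.173 and 0.256).

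Of 7 CDK inhibitors, 2 were higher and 0 lower (median 0.09). Cdkn1b, which encodes p27, was higher in 6 of 6 lines: 69.1, 107.5, 61.8, 173, 134 and 93.9 CPM in M1, M2, M3, T1, T2 and T3 with PLX4720, against 53.1, 65.2, 52.0, 152, 120.2 and 86.9 CPM with DMSO. Its log2 change was 0.30 ± 0.07 (edgeR adjusted p = 0.0136), lost without T1 (adjusted p = 0.0603). Cdkn1c, which encodes p57, was also higher in 6 of 6 lines (1.20 ± 0.23, edgeR adjusted p = 0.00617), and stood at 6.30 CPM or less in every library. Its 6 PLX4720 libraries held 16 to 230 fragments and its 6 DMSO libraries 8 to 50, and in T2 both held 19, so that line was higher by library scaling alone.

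Of 14 cyclin turnover genes, 5 were lower and 2 higher (median -0.16). Cks1b, which helps the ligase that degrades p27, was -0.41 ± 0.05 (edgeR adjusted p = 0.00129). Cryab, a chaperone that also serves an F-box ligase for cyclin D1, was 1.80 ± 0.18 (adjusted p = 0.000356), and Gsk3b, which phosphorylates cyclin D1 for export and degradation, was 0.38 ± 0.09 (adjusted p = 0.0126), lost without T1 (0.0521). The lower count was 2 without T1, T2, T3 or M2. Of 17 FOXO targets, 7 were higher and 1 lower (median 0.38), including the insulin signalling adaptor Irs2 (0.88 ± 0.06, adjusted p = 9.33e-05), the PI3K inhibitor Pik3ip1 (0.86 ± 0.13, adjusted p = 0.00253) and the transcription cofactor Cited2 (0.67 ± 0.12, adjusted p = 0.00462). Ccng2, itself a FOXO target, was not among the genes that passed. By site, Irs2 passed in primary and metastasis lines (0.89 and 0.88, edgeR adjusted p = 0.00299 and 0.000343). Pik3ip1 and Cited2 passed in metastasis lines (1.29 and 1.14, adjusted p = 0.00166 and 0.00224). They did not in primary lines (0.44 and 0.21, adjusted p = 0.191 and 0.476), nor in the difference of the effects (adjusted p = 0.150 and 0.0829). Cited2 was lower in T2, at 74.1 CPM with PLX4720 against 86.2 CPM with DMSO. Of 29 other cyclins, CDKs and CDC25 genes tested, 8 were lower and 2 higher (median -0.06), with Cdk1 (-0.33 ± 0.06, adjusted p = 0.00483), Cdk9 (-0.31 ± 0.06, adjusted p = 0.00601) and Ccnf (-0.31 ± 0.06, adjusted p = 0.00766) ranked first, and 4 were lower without T1, T2 or T3. ERK output had a median of -0.85 and was led by Etv4 (-2.15 ± 0.16, adjusted p = 0.000124).

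Between the sites under DMSO, where 12.1% of all genes were called by edgeR, the lists held 2 called of 14 RB and E2F genes, 1 of 7 CDK inhibitors, 3 of 29 other cyclins, CDKs and CDC25 genes, 2 of 14 turnover genes, 2 of 17 FOXO targets, 3 of 19 ERK output genes and 0 of 20 E2F targets. The PFTAIRE kinase Cdk14 was higher in metastasis lines (2.27 ± 0.32, adjusted p = 0.00880) and the kinase Cdk18 lower (-3.87 ± 0.52, adjusted p = 0.00705), and Irs2 was lower (-1.67 ± 0.27, adjusted p = 0.0120). Usp2, a deubiquitinase that acts on cyclin D1, was higher (4.50 ± 0.68, adjusted p = 0.0101) but low throughout. It stood at 3.25, 8.60 and 3.08 CPM in M1, M2 and M3 with DMSO. In T1, T2 and T3 it had only 5, 13 and 7 fragments, so the size of its difference is poorly determined. Cdkn1b was lower in metastasis lines (-1.06 ± 0.24, adjusted p = 0.0371), the call being lost without T1, T2, M1, M2 or M3 (adjusted p = 0.105, 0.107, 0.0942, 0.0870 and 0.117). E2f5 (1.09), Tfdp2 (-0.78) and the CDK subunit Cks2 (0.92) passed at adjusted p = 0.0265, 0.0388 and 0.0313, and lost it in most fits without a line. Of the 20 E2F targets, 0 passed by edgeR and 2 had p under 0.05 unadjusted, against 3884 of 14992 genes. DESeq2 called 2 of them higher, against 1246 of 14992 genes.

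Some pairs of members co-varied. Over the 12 libraries, the highest Pearson r on log2(CPM + 1) were 0.884 for Cdk4 and Ccne1, 0.851 for Ccnd2 and Cdk6, and 0.836 for Ccnd3 and Ccne1. The lowest were -0.796 for Ccne1 and Ccng2 and -0.769 for Cdk6 and Ccne2. Other pairs were weak: the strongest r of Ccnd1 with any member was 0.466, with Cdk6, and Ccnd2 and Cdk2 had -0.0768. These values describe 12 libraries in which each line appears in 2 and the sites differ, and they carry no p. Among 11272 genes the most similar patterns were those of Psma3, Psmc1 and Mogs to Cdk4 (r = 0.987, 0.967 and 0.966), of Eif2b3, Eif2s1 and Dlst to Ccne1 (0.982, 0.974 and 0.969), of Afdn, Prkx and Wwc1 to Cdk6 (0.975, 0.974 and 0.973), and of Slc25a26, Rwdd2b and Slc25a15 to Ccnd2 (0.975, 0.970 and 0.963). Adsl, Rpa2 and Ccnh were nearest to Ccne2 (0.969, 0.963 and 0.958), Nlrc5, C1ql3 and Max to Ccnd3 (0.966, 0.954 and 0.952), and Get4, Atp5c1 and Dnph1 to Cdk2 (0.952, 0.939 and 0.935). Pigx, Zfp354a and Asxl1 were nearest to Ccng2 (0.946, 0.941 and 0.922). Ccnd1 had the weakest best match of the 9, Fastkd1 at 0.916, followed by Fgd6 at 0.893 and Pkn3 at 0.888.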

How the data were processed

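RNA was measured in 12 libraries of 6 lines, made from stranded total RNA after ribosomal RNA removal, per the labels' protocols. Per the file headers, the authors ran featureCounts 1.5.2 over exons of Ensembl annotation 84 (GRCm38) without a strand option, and the deposited values are the resulting unnormalized counts of fragments. Exon lengths used for CPM per kb are the deposited gene length values of the same tables, in another unit than the counts. An aligner name was not given in the sources used here. Of 47729 genes, 47224 were matched to a symbol by gene ID.

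Totals were 31992512 to 39288748 fragments. Intervals cover counting error only, since reads carry no molecular identifiers.

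Counts were analysed with edgeR 4.0.16 in R 4.3.3 (filterByExpr, TMM, quasi-likelihood test, Benjamini-Hochberg over all genes tested, threshold 0.05). For PLX4720 against DMSO, 1 fit held all 12 libraries, blocked by line, with separate PLX4720 terms for primary and metastasis lines. Sites were compared on the 6 libraries of each treatment without a block. The SE is the absolute log2 change divided by the root of F. Per-line changes are differences of log2(CPM + 1). D cyclin shares were tested by exact permutation.

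The line named in the labels pairs its libraries: their deviations from group means correlated at 0.794 to 0.900. No library pair of a group agreed within counting noise. The fits were tested on simulated data drawn without differences between lines, so that test does not cover the line block or the spread between lines. Alternatives were DESeq2 1.42.0, RLE size factors, no filter, other blocks, each line left out, M2 and M3 pooled, and, chosen after seeing the data, mitochondrial genes left out of the counts and shared exon bases left out of the length. Members and lists were chosen with earlier results of these data known. Named genes are all members, up to 3 genes per list with the smallest p over the 6 lines and up to 2 between sites under DMSO, and the 3 genes most correlated with each member (mean CPM of at least 2). From the site genes and ERK list only some are printed, picked after their values were seen. Of the genes this rule names, 1 is not reported here. Promoters come from RefSeq (GRCm38.p6).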

Additional observations from a re-analysis of the deposited data

Results flagged for a closer look

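Cdk6 changed with PLX4720 by 0.86 in T3 on the log2(CPM + 1) scale, farther from the other lines than a Dixon test at 95% allows for 6 values. The other lines lay between -0.07 and 0.26. T3 with PLX4720 is also the library with 3.67% of mitochondrial fragments, whose part in this value was not tested. The test marks about 1 group in 20 by chance.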

How the results depend on the processing

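Calls over all genes and over members changed with the fit as follows. Without the cell line block (no replicate block), 18, 1, 15 and 0 genes were called over 6 lines, in primary lines, in metastasis lines and for their difference, and 0 members in each, since differences between lines then enter the spread. Replicate numbers did not pair lines across sites (r = -0.0881 to 0.0628). With them as a replicate block, 1106 of 14992 genes and 0 members were called between sites under DMSO. Under PLX4720 that block gave 1398 of 15276 genes and 1 member, as Ccne1 missed (edgeR adjusted p = 0.0776). With no filter, 2052 of 31262 genes and 3 members were called in primary lines, and 996 of 31262 genes and 1 member for the difference of the effects. Between sites under PLX4720, no filter gave 2162 of 29125 genes and 1 member. DESeq2 called 1882 of 16555 genes and 2 members in primary lines, and 921 of 16555 genes and 1 member for the difference. Between sites it called 2974 of 14992 genes and 5 members under DMSO, and 3163 of 15276 genes and 3 members under PLX4720. Libraries of 1 site alone gave 2491 of 15168 genes and 3 members in primary lines and 2195 of 14542 genes and 1 member in metastasis lines. M2 and M3 summed gave 1177 of 15966 genes and 1 member between sites under DMSO, Cdk6 (edgeR adjusted p = 0.0157). The cause of these changes was not tested. RLE size factors and leaving out mitochondrial genes moved no count of genes or members by over 1.5 times.

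With 1 line left out, genes called ranged over 2417 to 4384 (6 lines), 91 to 2252 (primary), 1891 to 3090 (metastasis), 122 to 798 (difference of effects), 901 to 1595 (sites, DMSO) and 1097 to 1712 (sites, PLX4720). Members called ranged over 2 to 5, 0 to 2, 1 to 2, 0 to 0, 0 to 2 and 0 to 2. These fits tested 17038 to 17295 genes for the PLX4720 effects, 15568 to 15918 for sites under DMSO and 15946 to 16213 for sites under PLX4720. The lowest counts came without T1 over 6 lines and in primary lines, without T2 for the difference, and without M2 in metastasis lines and between sites. The Ccnd1 share change with PLX4720 was -4.55 to -2.89 points, with exact p = 0.0625, the smallest 5 pairs allow. Its site difference was 3.74 to 10.5 points with DMSO and -0.345 to 8.64 with PLX4720. On all lines, with shared exon bases left out of the length, the D cyclin share differences kept their direction. The Ccnd1 share change with PLX4720 kept its exact p of 0.03125.

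Values that changed sign without 1 line all fell short of the threshold, and ran as follows over these fits: Ccnd3 over 6 lines -0.12 to 0.0076 and in metastasis lines -0.093 to 0.14, Ccng2 -0.28 to 0.26 and Ccnd2 -0.13 to 0.46 in primary lines, Ccne2 -0.16 to 0.17, Cdk4 -0.17 to 0.0053 and Cdk2 -0.029 to 0.15 for the difference of effects, and Ccnd1 -0.21 to 0.024 between sites under DMSO.

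Depth did not limit the members other than Ccnd2, which had 6 to 80 fragments in M1 and M2 libraries, while the other 8 had at least 558 fragments in each library.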

Other observations

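Cdkn2a, which encodes the CDK4 and CDK6 inhibitor p16 as well as Arf, was singled out after its values were seen. It stood at 0.466 and 0.182 CPM (17 and 6 fragments) in M1 and M2 with PLX4720 and at 0.149 and 0 CPM (5 and 0 fragments) with DMSO, the same lines in which Ccnd2 was 2.38 CPM or less. In M3 it stood at 254 CPM with PLX4720 and 229 CPM with DMSO, and in primary lines at 79.2 to 175 CPM. The labels give these lines as p53 knockouts, the design text also names animals with Cdkn2a deletion, and whether Cdkn2a is deleted in M1 and M2 was not tested.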
